A study of Homo sapiens with 18 samples.

Results

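The comparison described here set the effect of lenalidomide in OPM2 human myeloma cells against the effect of losing IKZF1 in the same line. For each gene the log2 fold change of lenalidomide-treated over untreated cells was taken, and the log2 fold change of IKZF1 knockout over empty vector cells was subtracted from it. A negative difference means that the drug took the RNA lower than IKZF1 loss did, relative to each one's own control, and a positive difference means the reverse. The samples were chosen by their labels: 8 of the 18 libraries of the series, in 4 groups of 2. Untreated OPM2 cells carry no added agent and no culture time in the labels. Lenalidomide cells were cultured with the drug at 10 µM for 72 h. Empty vector cells and IKZF1 knockout cells were both given doxycycline at 1 µg/mL for 72 h, which in the knockout cells switches on the guide RNA of an inducible CRISPR-Cas9 system. Live cells were sorted by light scatter before RNA extraction. The labels do not say whether the drug-treated and untreated cells carried Cas9 or a vector. They also do not say whether the 2 libraries of a group came from separate cultures or clones. The p-values rest on the spread between libraries of a group, pooled over all 18 libraries of the series, and that spread may be technical.

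Lenalidomide binds cereblon, the substrate receptor of a ubiquitin ligase, and redirects it to proteins it does not normally degrade. The lymphoid zinc finger factors IKZF1 (Ikaros) and IKZF3 (Aiolos) are the best known of these neosubstrates, and casein kinase 1 alpha and several other zinc finger proteins are others. Removing IKZF1 by gene editing takes away 1 neosubstrate and leaves the ligase and its other targets alone, so the difference of the effects covers what the drug did beyond, or short of, the loss of that factor.

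Total counts ran from 11.8 to 22.35 M over the 8 libraries. All 10 markers of OPM2 and of plasma cells that were looked up (among them FGFR3, NSD2, SDC1, IRF4 and JCHAIN) had at least 178 counts in every library. The 10 T and NK cell markers reached at most 4 counts and the 11 epithelial and stromal markers at most 11, with 3 and 4 of them at 0 in all 8 libraries. Of the 6 erythroid markers only HBB was above 2 counts (42 to 253), and of 18 myeloid genes CD33 had 36 to 311 counts and CEBPB, which is described below, more. The empty vector libraries were unlike each other: 1625 genes differed over 2-fold between replicates 1 and 2, against 258 to 973 within the other 8 groups of the series. Replicate 1 had the lowest TMM factor of the 18 libraries (0.86, against 0.98 for replicate 2). It enters both the IKZF1 effect and the difference, so results are given with and without it. It also enters the spread that all comparisons share. Calls for lenalidomide changed without it, though the drug's folds hardly did (for SESN2, -3.04 with it and -3.05 without it on the log2 scale). With 1 library left in that group, its spread is then taken from the other groups.

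IKZF1 RNA (Entrez 10320, chromosome 7, 50303455 to 50405101, GRCh38) did not mark the knockout. Its level was 213 and 225 CPM (counts relative to TMM-scaled library size) in the knockout libraries, 94.3 and 188 CPM in empty vector replicates 1 and 2, 212 and 225 CPM in untreated cells and 233 and 246 CPM after lenalidomide. CRISPR editing and ligase-driven degradation act on the gene's sequence and on its protein, so RNA level checks neither label. The difference of effects for IKZF1 was -0.50 ± 0.33 on the log2 scale (± SE, edgeR quasi-likelihood test, Benjamini-Hochberg adjusted p = 0.329) and -0.12 without empty vector replicate 1. Knockout against empty vector alone was 0.63 for IKZF1 RNA (adjusted p = 0.0479, edgeR), and 0.25 without empty vector replicate 1. For IKZF3 the difference of effects was -0.67 ± 0.25 (adjusted p = 0.111). IKZF3 RNA was called higher after knockout, at 80.4 and 79.2 CPM against 44.1 and 50.3 CPM with empty vector (0.76, adjusted p = 0.00486, edgeR). The lenalidomide effect on it was 0.09 (adjusted p = 0.838).

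CD38, the surface enzyme bound by the antibody daratumumab and named in the title of the series, was higher under both conditions. Its level was 10.9 and 12.7 CPM in untreated cells and 28.0 and 29.0 CPM after lenalidomide, 15.6 and 17.4 CPM with empty vector and 44.5 and 48.8 CPM after IKZF1 knockout. Neither treated group overlapped its control. The drug effect was 1.27 log2 units and the IKZF1 effect 1.495 (adjusted p = 0.00172 and 0.000399, edgeR). Their difference was -0.22 ± 0.31 (95% interval -0.88 to 0.43, adjusted p = 0.665), so these libraries could not tell the effects apart and leave room for a difference in either direction.

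Over all genes, the effects of lenalidomide and of IKZF1 loss were partly shared. Of 14522 genes tested, edgeR called 1506 for lenalidomide (839 higher and 667 lower, 10.4% of genes tested) and 5276 for IKZF1 loss (2359 higher and 2917 lower, 36.3%) at an adjusted p below 0.05. The genes called in both numbered 887, of which 874 moved in the same direction (534 higher, 3.68% of genes tested, and 340 lower, 2.34%), which is 58.0% of the drug's calls and 16.6% of those of IKZF1 loss. Without empty vector replicate 1 the calls were 3256 (22.4%) and 3180 (21.9%), with 1500 genes in the same direction (46.1% and 47.2%) and 40 in opposite directions. Across genes, which are not independent replicates, the effects had a Pearson correlation of 0.43.

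The difference itself was called for 41 genes, 10 higher (0.0689%) and 31 lower (0.213%), together 0.282% of genes tested (with 4060 at an unadjusted p below 0.05). Without empty vector replicate 1 it was called for 547 (3.77%), 139 higher (0.957%) and 408 lower (2.81%), and all 41 were among them in the same direction. In a fit of the 8 compared libraries alone 0 genes were called (1862 at an unadjusted p below 0.05), and the lowest adjusted p there was 0.0658 for SESN2, CTH and FLRT1. In that fit without empty vector replicate 1, 995 were called, including 40 of the 41. Calls for 8 of the 41 held without any 1 of the 8 libraries: SESN2, CTH, SLC6A9, FLRT1, INHBE, ATRNL1 and BNIP3L, all lower, and ARG2, higher. In the authors' deposited table of log2 FPKM values, all 41 had a difference of the same sign. That table comes from the same libraries, so the shared sign is not separate support.

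**Figure D1:**
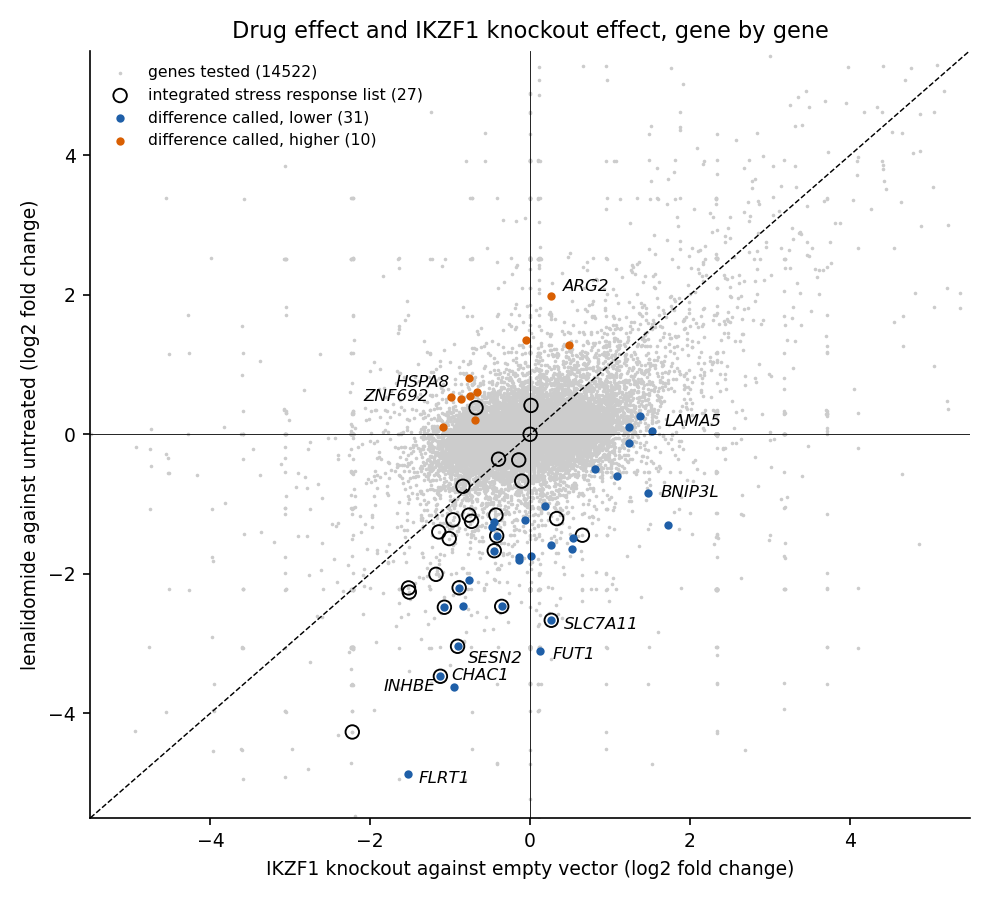
Each grey point is a gene, with its log2 fold change after IKZF1 knockout on the x axis and after lenalidomide on the y axis. The dashed line marks equal effects. Filled points are the 41 genes called for the difference (blue 31 lower, orange 10 higher), open circles are the 27 tested genes of the integrated stress response list, most of them below the line and left of 0, and 50 genes lie outside the axes.

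The controls differed too, which bears on every value of the difference. Empty vector cells with doxycycline against untreated cells gave 5140 calls (2838 higher and 2302 lower, 35.4% of genes tested), and 3116 (21.5%) without empty vector replicate 1. Of the 41 genes, 31 were called in that comparison of controls, 22 of them with a sign opposite to that of their IKZF1 effect. Both comparisons contain the empty vector libraries, with opposite signs, so opposite results are partly built in. The difference by which the 41 were chosen contains those libraries too. Vector, doxycycline and culture cannot be told apart in the comparison of controls. The lenalidomide and knockout libraries were also compared with each other directly, which drops both controls and shares 4 libraries with the difference. Knockout cells had doxycycline and lenalidomide cells did not, so doxycycline, and any difference of vector or culture, enters this comparison. Its value for a gene equals the difference of effects minus the change of empty vector over untreated cells, so it is not a separate check. There 142 genes were called (0.978% of genes tested), 78 higher (0.537%) and 64 lower (0.441%) after the drug. Of the 41, 33 kept their sign and 18 were called with it: 14 of the 31 lower genes and 4 of the 10 higher ones.

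Of the 31 genes with a negative difference, 8 belonged to the list of the integrated stress response and amino acid synthesis. The integrated stress response is the program by which cells short of amino acids or under other stress slow general translation while making the factor ATF4, which then switches on genes for amino acid synthesis and import. Myeloma cells make large amounts of antibody protein and lean on this supply. The list used here has 29 genes, of which 27 were tested (CBS among them, with 0 counts in all 8 libraries). For the difference 8 were called lower and 0 higher, against 0.213% of all genes called lower. The median difference of the list was -0.73, against 0.01 over all genes tested. Without empty vector replicate 1, 16 were called lower (median -0.93), against 2.81% of all genes, and in the direct comparison with the knockout 12 (median -0.55), against 0.441%. Lenalidomide lowered 20 of the 27 (median -1.45), against 4.59% of all genes tested. IKZF1 loss lowered 19 (median -0.73), against 20.1%, and 17 without empty vector replicate 1, against 10.6%. In both effects 18 were lower, against 2.34% of all genes. The list's summed level was 10396 and 10169 CPM in untreated cells, 3911 and 3917 CPM after lenalidomide, 11907 and 9563 CPM with empty vector and 6316 and 5594 CPM after knockout.

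Binding sites of ATF4 join part of a cAMP response element to part of a C/EBP site, and the letters TGATGNAA (either strand, within 250 bases before the annotated start) were searched in RefSeq promoters of build GRCh38.p14. Promoters were matched for 23 of the 31 genes called lower, and 3 of these 23 held the letters, against 3.19% of 27305 promoters. They are shown, with the matching bases in capitals, because ASNS and CHAC1 are textbook targets of ATF4 and FUT1 was 1 of the genes with the most negative differences. A match is a description of the letters and not a site of binding.
ASNS, chr7:97872409-97872658, minus strand: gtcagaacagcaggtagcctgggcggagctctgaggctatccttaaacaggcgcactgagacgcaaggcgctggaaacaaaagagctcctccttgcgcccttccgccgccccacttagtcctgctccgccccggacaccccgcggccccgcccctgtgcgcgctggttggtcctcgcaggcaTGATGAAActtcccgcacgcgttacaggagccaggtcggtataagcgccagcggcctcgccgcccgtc
CHAC1, chr15:40953221-40953470, plus strand: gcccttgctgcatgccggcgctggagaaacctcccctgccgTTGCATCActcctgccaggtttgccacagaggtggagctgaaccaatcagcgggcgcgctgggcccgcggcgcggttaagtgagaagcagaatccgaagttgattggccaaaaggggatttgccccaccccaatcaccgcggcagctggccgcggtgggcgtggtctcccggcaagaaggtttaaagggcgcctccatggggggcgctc
FUT1, chr19:48755359-48755608, minus strand: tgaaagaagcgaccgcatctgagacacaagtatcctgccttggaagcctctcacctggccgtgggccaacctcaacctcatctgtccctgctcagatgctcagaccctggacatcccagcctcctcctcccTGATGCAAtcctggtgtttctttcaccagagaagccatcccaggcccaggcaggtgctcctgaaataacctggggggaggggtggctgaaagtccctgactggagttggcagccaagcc
In ASNS the match begins 68 bases before the start on the coding strand, in FUT1 119 bases before it, and in CHAC1 the match lies on the other strand and begins 209 bases before the start.

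SESN2 (Entrez 83667, chromosome 1, 28259518 to 28282491, GRCh38) encodes sestrin 2, a leucine sensor that restrains mTORC1. It was at 291 and 298 CPM in untreated cells and 38.5 and 33.0 CPM after lenalidomide, and at 178 and 167 CPM with empty vector and 95.9 and 87.8 CPM after knockout. No group overlapped another, and the drug libraries were the lowest of the 8. The drug effect was 8.23-fold lower and the IKZF1 effect 1.88-fold lower, a difference of -2.13 ± 0.18 (adjusted p = 4.93e-05, edgeR), and -2.21 without empty vector replicate 1. Directly against the knockout, SESN2 was at -1.36 on the log2 scale (adjusted p = 0.000248), and the empty vector cells were themselves 1.71-fold below untreated cells (adjusted p = 0.00102).

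CTH, cystathionine gamma-lyase, makes cysteine from cystathionine. It fell from 67.0 and 64.4 CPM to 11.5 and 12.3 CPM with the drug. With empty vector it was at 29.2 and 36.5 CPM, and after knockout at 25.7 and 25.8 CPM, a smaller step below its control (-0.36, adjusted p = 0.0356). The difference was -2.11 ± 0.18 (adjusted p = 4.93e-05) and -1.12 in the direct comparison (adjusted p = 0.000805).

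SLC7A11, the cystine importer of the plasma membrane, showed another pattern. It was at 123 and 128 CPM in untreated cells and at 22.3 and 17.0 CPM after lenalidomide. The knockout libraries, at 75.2 and 66.7 CPM, overlapped the empty vector libraries, at 38.8 and 78.8 CPM, and the IKZF1 effect was 0.27 (adjusted p = 0.535). The difference was -2.93 ± 0.45 (adjusted p = 0.011), -2.55 without empty vector replicate 1 and -1.85 directly (adjusted p = 0.0135). Its controls differed as well, with empty vector against untreated cells at -1.08 (adjusted p = 0.0155). CHAC1, which breaks down glutathione, was at 68.6 and 67.1 CPM in untreated cells and 7.19 and 4.95 CPM after the drug. With empty vector it was at 55.2 and 36.0 CPM and after knockout at 18.6 and 23.1 CPM. All 4 groups were apart, and the difference was -2.35 ± 0.34 (adjusted p = 0.00601).

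The remaining 4 called list members, 3 of them enzymes of amino acid and folate metabolism, had differences between -1.04 and -1.41. ASNS, asparagine synthetase, was at 299.8 and 318 CPM in untreated cells and 58.4 and 52.3 CPM after lenalidomide, against 281 and 256 CPM with empty vector and 145 and 110.1 CPM after knockout. Its controls did not overlap, but their difference did not pass the test (-0.20, adjusted p = 0.343), and the difference of -1.41 ± 0.23 (adjusted p = 0.0154) stood close to the direct value of -1.21 (adjusted p = 0.00254). PSPH, the last enzyme of serine synthesis, had a difference of -1.22 ± 0.18 (adjusted p = 0.00745). MTHFD2, the mitochondrial folate enzyme, had -1.04 ± 0.18 (adjusted p = 0.0241) and, of the 8 called list members, was the one not called directly (-0.55, adjusted p = 0.0639). CEBPB, a transcription factor that partners ATF4 and also stands in the myeloid list, was at 145 and 129.9 CPM in untreated cells and 29.99 and 29.7 CPM with the drug, and at 155 and 119 CPM with empty vector and 73.7 and 74.7 CPM after knockout. Its controls overlapped, and its difference of -1.31 ± 0.21 (adjusted p = 0.0165) equalled the direct value of -1.31.

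Members of the list that were not called for the difference had mostly fallen under both conditions. ATF4 itself was at 908 and 887 CPM in untreated cells and 403 and 365 CPM after the drug, and at 1311 and 813 CPM with empty vector and 558 and 529 CPM after knockout. Its difference was -0.26 (adjusted p = 0.465) with all libraries and -0.68 (adjusted p = 0.00472) without empty vector replicate 1, which held the highest ATF4 level of the 8. TRIB3 and DDIT3, which ATF4 induces, had differences of -0.68 and -0.75 (adjusted p = 0.0925 and 0.16) and of -1.03 and -1.18 without that library, where both were called. The amino acid transporter SLC7A5 had a difference of -0.83 (adjusted p = 0.0726) and a direct value of -0.99 (adjusted p = 0.00421). PSAT1 and PHGDH, which act before PSPH in serine synthesis, were under 0.4 CPM in every library, so no difference was detectable for them at this depth.

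Of the other 23 genes with a negative difference, 4 are given here. All of these except INHBE were picked out after their values were seen. INHBE, a subunit of activin E, fell from 162 and 140.4 CPM to 14.8 and 9.57 CPM with the drug, and was at 119 and 93.8 CPM with empty vector and 58.5 and 51.7 CPM after knockout, a difference of -2.68 ± 0.30 (adjusted p = 0.000888). SLC6A9, a glycine transporter, GPT2, the mitochondrial alanine aminotransferase, and GARS, glycyl-tRNA synthetase, had differences of -1.62 ± 0.22, -1.33 ± 0.19 and -0.85 ± 0.15. Each of these 4 was also called directly against the knockout. SLC6A9 and MTHFD2 overlap another protein-coding gene in the annotation, as do 5 more of the 41, and the sources used here do not give whether counting used strand, so reads of overlapping genes may be mixed.

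**Figure D2:**
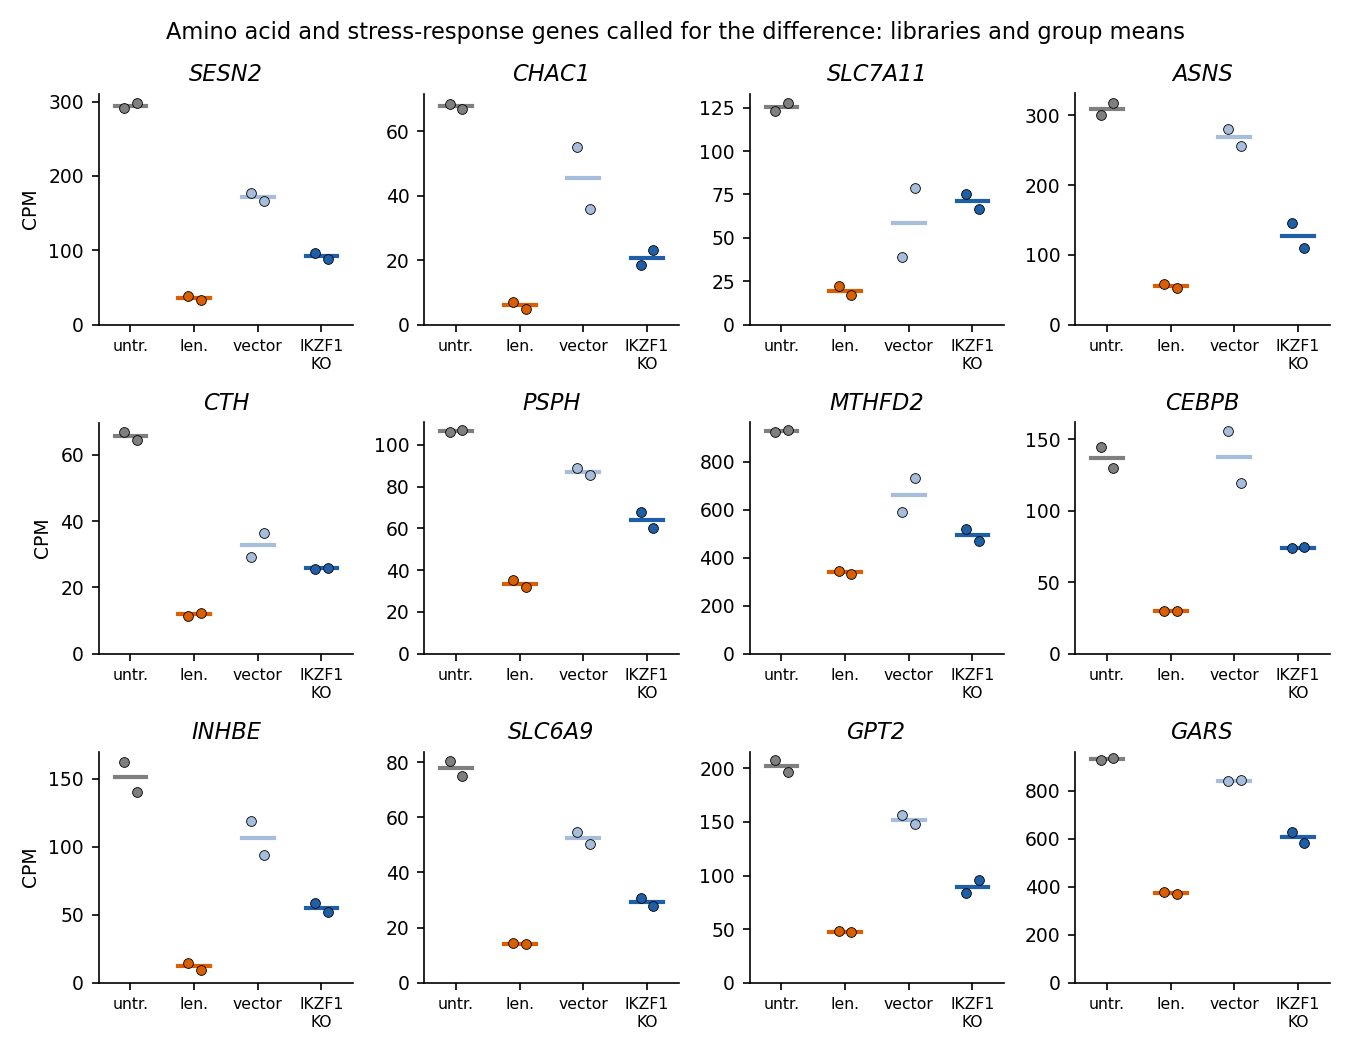
Points are single libraries and bars the mean of 2, in CPM on axes from 0, for the 8 members of the integrated stress response list called for the difference and for INHBE, SLC6A9, GPT2 and GARS. In all 12 panels the lenalidomide libraries are the lowest of the 8, for SESN2 at 38.5 and 33.0 CPM against 95.9 and 87.8 CPM after knockout.

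Of the 41 genes, 11 were called for lenalidomide and not for IKZF1 loss: 9 fell with the drug and 2, ARG2 and SPR, rose. FUT1, a fucosyltransferase that makes the H blood group antigen, was at 13.2 and 12.8 CPM in untreated cells and 1.90 and 1.06 CPM after lenalidomide, with 11.6 and 9.86 CPM with empty vector and 13.8 and 9.65 CPM after knockout. The knockout libraries spanned the range of both controls, and the drug libraries stood below all 6 others (difference -3.24 ± 0.53, adjusted p = 0.0165; direct -2.95, adjusted p = 0.00297). ETV5, an ETS factor downstream of receptor and MAP kinase signals, was at 27.1 and 27.4 CPM in untreated cells and 8.30 and 7.79 CPM with the drug, and at 22.1 and 28.0 CPM with empty vector and 20.8 and 25.0 CPM after knockout. Its difference was -1.63 ± 0.27 (adjusted p = 0.0165) and its direct value -1.51 (adjusted p = 0.00201). FLRT1, an adhesion protein with leucine-rich repeats, was called in both effects, with 33.7 and 28.3 CPM in untreated cells, 1.11 and 0.97 CPM after the drug, 22.4 and 22.9 CPM with empty vector and 9.31 and 6.42 CPM after knockout. The drug effect was 29.4-fold and the IKZF1 effect 2.88-fold lower (difference -3.35 ± 0.34, adjusted p = 0.000379). FLRT1 lies inside MACROD1 in the annotation.

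Among the 10 genes with a positive difference, ARG2 had the highest value. ARG2 (Entrez 384, chromosome 14, 67619920 to 67651708, GRCh38) encodes the mitochondrial arginase, which splits arginine into ornithine and urea. It was at 12.97 and 13.2 CPM in untreated cells, 52.3 and 51.7 CPM after lenalidomide, 15.5 and 14.3 CPM with empty vector and 14.7 and 20.8 CPM after knockout. The drug libraries were well above all 6 others, and the knockout overlapped its control. The difference was 1.73 ± 0.23 (adjusted p = 0.00479), 1.64 without empty vector replicate 1 and 1.55 directly (adjusted p = 0.000248), and the controls did not pass the test (0.19, adjusted p = 0.401). GNPDA1, glucosamine-6-phosphate deaminase, rose under both conditions and further with the drug, from 71.0 and 76.3 CPM to 171 and 188 CPM, against 95.5 and 87.1 CPM with empty vector and 128 and 128 CPM after knockout. Its difference was 0.80 ± 0.14 (adjusted p = 0.0271).

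Of 16 tested genes of the cereblon ligase and its neosubstrates, only ZNF692 was called for the difference, against 0.282% of all genes. ZNF692 is a zinc finger protein reported as a lenalidomide neosubstrate. It was at 22.03 and 21.6 CPM in untreated cells and 32.5 and 30.8 CPM after lenalidomide, and at 44.7 and 27.2 CPM with empty vector and 18.04 and 17.95 CPM after knockout. The difference was 1.53 ± 0.25 (adjusted p = 0.0165) and 1.09 without empty vector replicate 1, its highest library, and the direct value was 0.81 (adjusted p = 0.0463). The drug effect alone was 0.54 (adjusted p = 0.0726, edgeR), and 0.53 without empty vector replicate 1. Its controls differed, with empty vector against untreated cells at 0.71 (adjusted p = 0.00732, edgeR), and 0.29 without empty vector replicate 1. CBLN1, a secreted synapse organiser, was called in opposite directions with all libraries, but without empty vector replicate 1 its IKZF1 effect was not called (-0.61, adjusted p = 0.0519). It was at 6.76 and 6.73 CPM in untreated cells, 12.4 and 11.4 CPM after the drug, 11.5 and 9.68 CPM with empty vector and 5.80 and 6.59 CPM after knockout (difference 1.58 ± 0.27, adjusted p = 0.0208). Directly it was higher by 0.94 (adjusted p = 0.0357).

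For the other 23 of the 41 genes the direct comparison did not pass the test, and for 8 of them it had the other sign. The chaperones HSPA8 and FKBP4 show the pattern. HSPA8, the constitutive HSP70 protein, was at 853 and 914 CPM in untreated cells and 1239 and 1352 CPM after lenalidomide, at 2400 and 2031 CPM with empty vector and at 1410 and 1225 CPM after knockout. Drug and knockout libraries overlapped, and the empty vector libraries were the highest. The difference was 1.30 ± 0.20 (adjusted p = 0.00823) and the direct value -0.02 (adjusted p = 0.998), while empty vector lay 1.33 log2 units above untreated cells (adjusted p = 0.000295). HSPA8 has many near-identical pseudogene copies, so its counts are uncertain. FKBP4, an HSP90 cochaperone, had a difference of 1.19 and a direct value of -0.25, and SPR, sepiapterin reductase, 1.41 and -0.19.

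On the lower side the direct value had the other sign for BNIP3L, P4HA1, NDRG1, GBE1 and MACROD2. BNIP3L, a mitophagy receptor, was at 149 and 130.4 CPM in untreated cells and 91.8 and 63.7 CPM after the drug, but at only 13.7 and 21.5 CPM with empty vector and 50.4 and 48.7 CPM after knockout. Its effects were called in opposite directions (difference -2.33 ± 0.31, adjusted p = 0.00479). The controls differed by -2.98 (adjusted p = 3.03e-05), and directly BNIP3L was higher with the drug by 0.65 (adjusted p = 0.184). P4HA1, a collagen prolyl hydroxylase subunit, had a difference of -1.76 ± 0.25 and a direct value of 0.43 (adjusted p = 0.00601 and 0.313), NDRG1 -1.11 ± 0.21 and 0.30, the glycogen branching enzyme GBE1 -1.22 ± 0.24 and 0.13, and MACROD2, a hydrolase of ADP-ribose marks, -1.13 ± 0.22 and 0.54. Of 25 tested genes of glycolysis and the hypoxia response, only NDRG1 was called for the difference, against 0.282% of all genes. Directly, 0 of the 25 were called, against 0.978%. The list's median difference was -0.11, and -0.36 without empty vector replicate 1. Lenalidomide lowered 11 of the 25, against 4.59% of all genes, and IKZF1 loss 11, against 20.1%. With empty vector 8 were lower than in untreated cells, against 15.9% of all genes, and 1 was higher, against 19.5%.

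**Figure D3:**
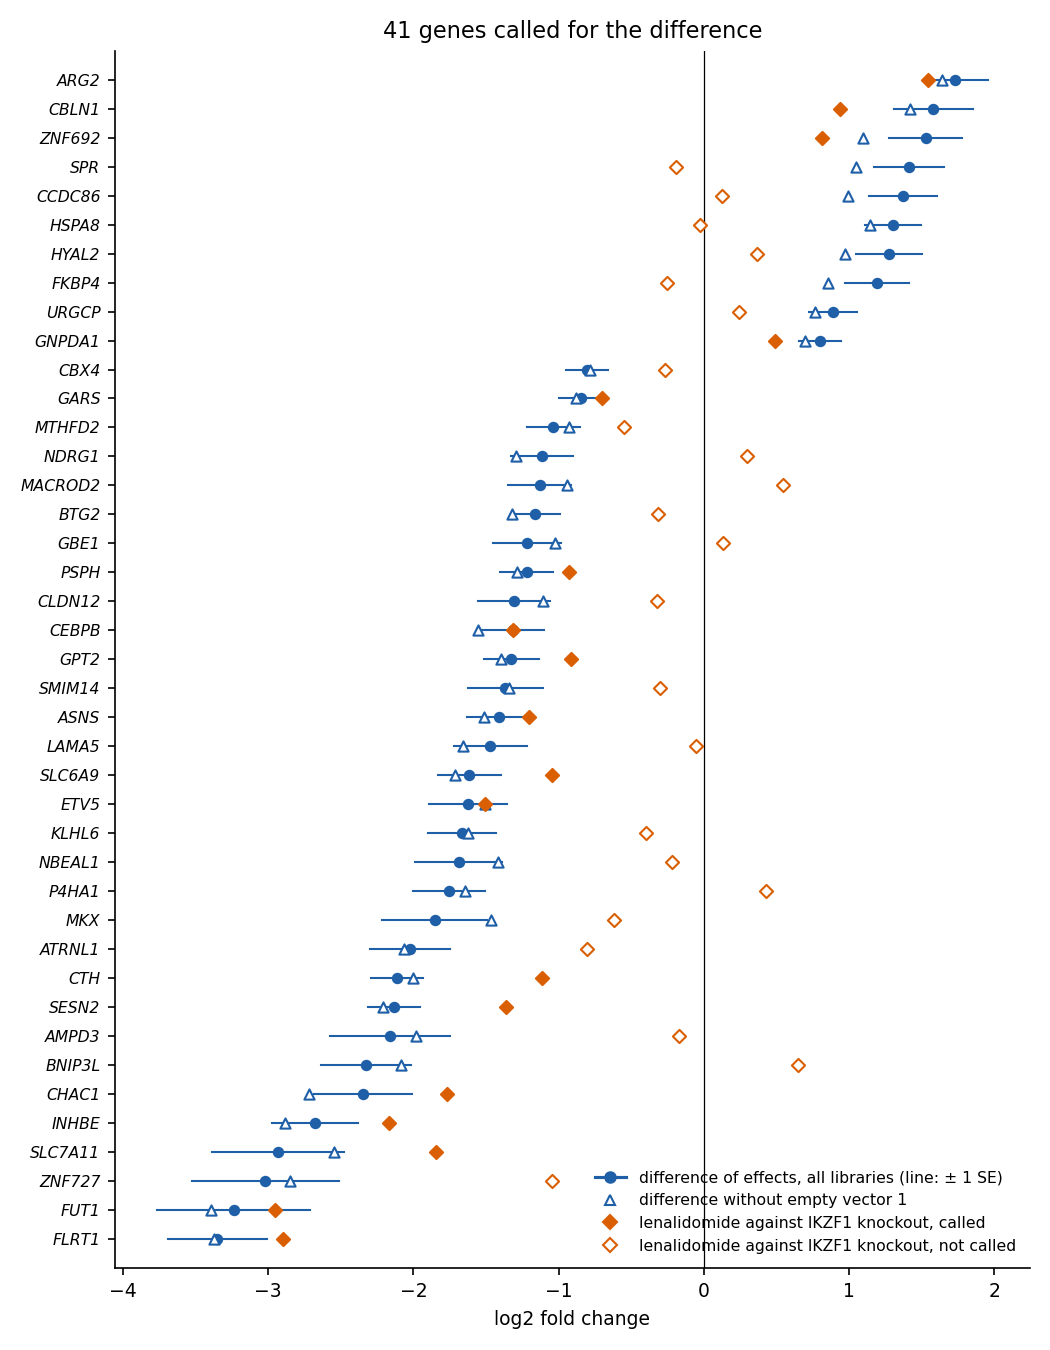
For each of the 41 called genes, the blue point is the difference of effects in log2 units (line, ± 1 SE), the triangle the difference without empty vector replicate 1, and the diamond lenalidomide against knockout directly (filled where called). Triangles lie on the same side of 0 as the points for all 41, while 8 diamonds cross to the other side, among them HSPA8 at -0.02 and BNIP3L at 0.65.

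The remaining gene lists had 0 members called for the difference with all libraries, while several moved under 1 or both conditions. Of 60 type I interferon-stimulated genes, 18 were higher and 1 lower after lenalidomide, against 5.78% of all genes higher. After knockout 21 were higher and 1 lower, against 16.2% of all genes higher, and the share called in either direction was near that of all genes (36.3%). In both effects 15 were higher, against 3.68% of all genes. Without empty vector replicate 1, 14 were higher after knockout (11.3% of all genes) and 11 in both (5.71%), among them IFIT3, IFI27, OAS1 and OAS2, which were called in both effects with and without that library. The list's summed level was 2133 to 2206.5 CPM in untreated cells, 2787 to 2807 CPM with the drug, 1983.5 to 2084 CPM with empty vector and 2505 to 2512 CPM after knockout. For the difference 0 of 60 were called (median -0.35, and -0.11 with 1 called lower without empty vector replicate 1). Directly, IFI27 and LGALS3BP were higher after lenalidomide than after knockout. LGALS3BP, a secreted glycoprotein, was at or under 0.08 CPM in all 4 control libraries, at 34.4 and 32.0 CPM after lenalidomide and at 2.67 and 3.47 CPM after knockout (direct 3.43 log2 units, adjusted p = 0.000356). With controls this near 0 the fitted difference had an SE of 2.45 and was not called.

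For the growth-related lists the counts of members called for each effect depended on empty vector replicate 1. Ribosomal protein genes were lower for 37 of 37 members after knockout (20.1% of all genes) and 9 after lenalidomide (4.59%), and higher for 36 in empty vector against untreated cells (19.5%). Without that library they were lower for 34 after knockout (10.6% of all genes) and 32 after lenalidomide (11.3%), and higher for 22 in the comparison of controls. Their summed level was 29061 and 25968.5 CPM in untreated cells, 19750 and 20661 CPM after the drug, 59584 and 34414 CPM in empty vector replicates 1 and 2 and 23429 and 24953 CPM after knockout. The median difference of 0.53 was 0.05 without empty vector replicate 1, with 0 of 37 called in either case. Genes of the nuclear-encoded respiratory chain were lower for 32 of 35 after knockout (20.1% of all genes) and 1 after lenalidomide (4.59%). They were higher for 29 in empty vector cells (19.5%). With that library left out these counts were 28, 16 and 24, and the median difference of 0.61 was 0.21. For MYC and its targets, 25 of 35 were lower after knockout (20.1% of all genes) and 7 after lenalidomide (4.59%). In empty vector cells 27 were higher (19.5%), and 0 were called for the difference. With it left out, 28 were lower after knockout and 14 after lenalidomide, with 13 lower in both (4.62% of all genes). Without empty vector replicate 1, RRP9 and RRS1, which act in ribosome assembly, had positive differences of 1.10 and 0.54. Directly, 3 of the 35 were lower after the drug than after knockout (0.441% of all genes), the opposite sign.

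The cell cycle inhibitor CDKN1A (p21) was at 95 and 75.02 CPM in untreated cells and 121 and 119 CPM after lenalidomide, and at 67.8 and 55.7 CPM with empty vector and 149 and 142 CPM after knockout. It rose under both conditions and its difference of -0.75 ± 0.20 was not called with all libraries (adjusted p = 0.0763), and was called without empty vector replicate 1 (-0.93, adjusted p = 0.011). SLAMF7, the surface target of elotuzumab, fell under both, from 594 and 581 CPM to 158 and 137 CPM with the drug and from 523 and 524 CPM to 365 and 186 CPM after knockout, where the libraries were far apart (difference -1.07 ± 0.30, adjusted p = 0.0777). Without empty vector replicate 1 its IKZF1 effect of -0.90 was not called (adjusted p = 0.0533). ERN1 (IRE1), a sensor of unfolded proteins, had a difference of -1.64 ± 0.40 (adjusted p = 0.0722, edgeR), and -1.125 without empty vector replicate 1. Its drug and IKZF1 effects without that library were -0.53 and 0.59, in opposite directions. Of 20 genes of endoplasmic reticulum folding 0 were called for the difference with all libraries, a count that depended on empty vector replicate 1. The list's median difference was -0.17, and -0.20 without empty vector replicate 1.

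**Figure D4:**
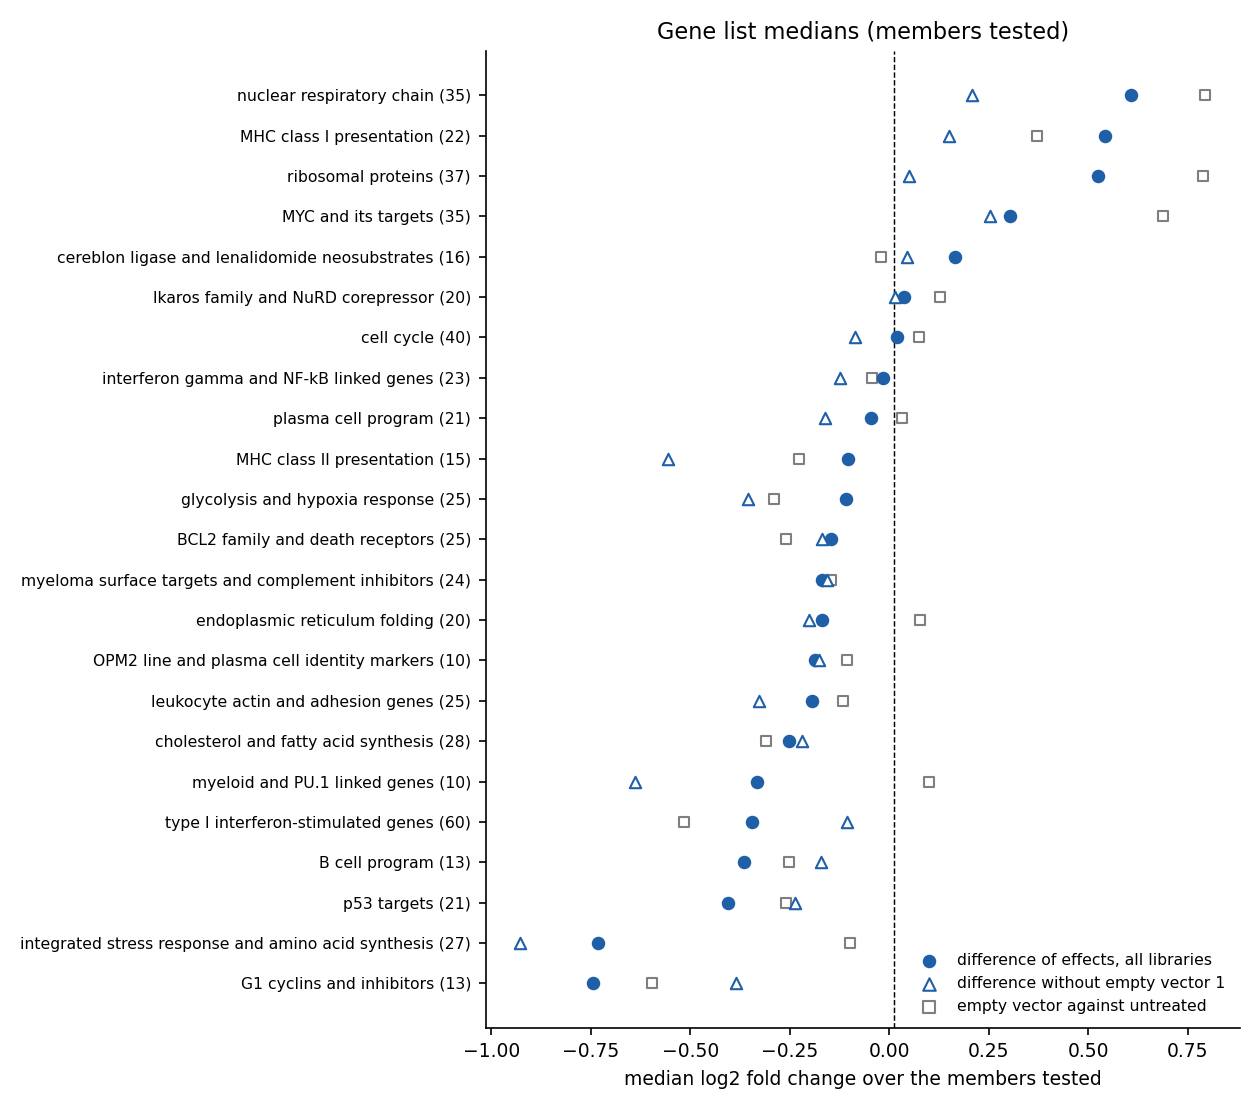
Median log2 fold change over the tested members of each list (number in brackets): points are the difference of effects, triangles the difference without empty vector replicate 1, and squares empty vector against untreated cells. The integrated stress response list is at -0.73 and -0.93, and the respiratory chain and ribosomal lists at 0.61 and 0.53 move to 0.21 and 0.05.

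Some genes were called in the same direction under both conditions and not called for the difference. UNC13C, a regulator of vesicle release, fell from 48.4 and 56.1 CPM to 8.76 and 8.36 CPM with the drug and from 53.02 and 58.4 CPM to 7.95 and 9.65 CPM after knockout. Its difference was 0.05 ± 0.23 (adjusted p = 0.93). TEC, a kinase of the BTK family, fell from 20.9 and 22.6 CPM to 3.92 and 3.33 CPM and from 19.3 and 21.3 CPM to 6.77 and 2.83 CPM, and ETV4 from 6.21 and 6.16 CPM to 1.44 and 1.14 CPM and from 11.9 and 9.63 CPM to 2.54 and 1.71 CPM. ETV4 is a close relative of ETV5, which was not called after knockout (-0.13, adjusted p = 0.598). Upward, both genes named here were near 0 CPM in the controls, so their folds are uncertain. The calcium-binding protein S100A16 was under 0.5 CPM in all 4 control libraries and at 29.5 and 30.4 CPM after lenalidomide and 38.6 and 48.6 CPM after knockout. The leukotriene receptor CYSLTR1 was under 0.4 CPM in the controls and at 16.5 and 17.0 CPM and at 6.90 and 10.8 CPM. The differences of S100A16 and CYSLTR1 had SEs of 0.998 and 1.14. For these 5 genes the difference was not called, which does not show that the effects were equal.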

How the data were processed

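RNA-seq of 18 libraries from 3 human myeloma cell lines was used, of which 8 from OPM2 enter the comparison. The authors deposited raw counts for genes keyed by Entrez ID, 1 column for each library, and log2 FPKM values in which control libraries are merged. Subread, featureCounts, limma and the build GRCh38 are named per the submitters' processing notes, and versions, settings and strand are not given in the sources used here. The log2 FPKM values were used only to compare signs. The headers of the knockout columns could not be matched to single titles, so these libraries were assigned to their group and are called a and b. In OPM2 the 2 knockout headers carry different codes. Whether these codes stand for different guides or clones is not given. Lenalidomide libraries carry the letters A and B. Values are listed in the order 1 and 2, A and B, or a and b.

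Rows without a symbol (385 of 28395, at most 0.0276% of a library's counts) were left out. Counts were fitted with edgeR 4.0.16 in R 4.3.3: filterByExpr by group, TMM scaling, and a robust quasi-likelihood model with 1 coefficient for each of the 9 groups over all 18 libraries (9 residual degrees of freedom). p-values were adjusted by Benjamini-Hochberg over the 14522 genes tested, and a gene was called below 0.05. The SE of a log2 fold change came from its F statistic. The filter looks at all 18 libraries, so 256 tested genes had 0 counts in the 8 compared. The fit was checked on simulated data in which, apart from genes with a seeded change, all groups had the same level and spread for a gene. No simulated library stood apart, so the check does not cover the effect of empty vector replicate 1. With 2 libraries in a group the precision rests on spread shared across groups and genes.

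Genes are named by a rule: IKZF1, IKZF3 and CD38, up to 12 of the highest and of the lowest differences called with and without empty vector replicate 1 at an average log2 CPM of at least 1, up to 4 members of each of 26 gene lists, and the highest and lowest shared effects. Other called genes are named after their values were seen (ASNS, MTHFD2, SLC6A9, GPT2, GARS, ETV5, GBE1 and MACROD2, and uncalled list members). The samples, comparison and lists were chosen with earlier results of these data known.

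Alternatives were other scalings (DESeq2 1.42.0 size factors, upper quartile), the low-count filter removed or set to at least 5 CPM in 2 libraries, the DESeq2 Wald test, limma-voom (limma 3.58.1), a test against a 1.5-fold change, the compared groups alone, each of the 8 libraries left out, and lenalidomide against knockout directly. Fits of the 8 libraries without empty vector replicate 1, and of the drug effect without the empty vector group, were added after seeing the data. Gene positions and promoters came from RefSeq tables (GRCh38.p14), matched by Entrez ID.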

Additional observations from a re-analysis of the deposited data

How the results depend on the processing

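The count of 41 genes called for the difference of effects stayed within 1.5 times under DESeq2 size factors, upper quartile scaling, the stricter filter and limma-voom. It was 2302 with no low-count filter, 1747 by the DESeq2 Wald test, 13 against a 1.5-fold change, 142 with untreated cells as the control of both effects, 0 with only the groups compared and 995 with the 8 compared libraries and no empty vector replicate 1. Leaving out 1 library gave 10 to 6596. The highest was without empty vector replicate 2, then 547 without replicate 1. Without lenalidomide A or B, or untreated replicate 1 or 2, it was 13, 11, 10 and 15. The drug effect gave 415 calls against a 1.5-fold change, 5566 with only its groups, 3255 with no OPM2 empty vector library and 586 to 3257 leaving out 1 library. The IKZF1 effect gave 645, 113 and 3109 to 7966, and empty vector against untreated 372, 0 and 2195 to 7829, under the 1.5-fold test, with only the groups compared, and leaving out 1 library. The cause of these shifts was not tested. With untreated cells as the control of both effects, the sign reversed for SPR (-0.19), HSPA8 (-0.024), FKBP4 (-0.25), BNIP3L (0.65), P4HA1 (0.43), NDRG1 (0.30), GBE1 (0.13) and MACROD2 (0.54).

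No paired analysis was possible for the difference because the knockout columns and the lenalidomide letters carry no replicate number of the labels. Empty vector and untreated libraries share only a number. Their deviations correlated at 0.12, and a replicate block gave 6152 calls against 5140. With 2 libraries in a group and total counts down to 11.8 M, genes near 0 CPM in a control, such as LGALS3BP, had no usable fold, and small differences were not detectable.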

Other observations

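FGFR3, the receptor kinase that the 4;14 translocation places under immunoglobulin control in OPM2, was at 2317 and 2269 CPM in untreated cells and 802 and 773 CPM after lenalidomide, and at 2181 and 2167 CPM with empty vector and 1285 and 1299 CPM after IKZF1 knockout. The treated libraries lay below their controls in both arms and the controls lay close together. The drug effect was called (-1.54 ± 0.31, adjusted p = 0.00432, edgeR), the IKZF1 effect was not (-0.75 ± 0.30, adjusted p = 0.0631), and neither was their difference (-0.79 ± 0.42, adjusted p = 0.231). FGFR3 was singled out after its values were seen.

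MT2A, a metallothionein that binds zinc and copper, was called lower under both conditions, with 4.69 and 3.58 CPM in untreated cells, 0.33 and 0.49 CPM after the drug, 14.6 and 7.44 CPM with empty vector and 2.93 and 1.71 CPM after knockout. Directly, lenalidomide cells were below knockout cells (-2.51, adjusted p = 0.0417), and the difference of effects was not called (-1.13 ± 0.65, adjusted p = 0.264).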
